A study of Mus musculus with 10 samples.

Results

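CpG islands that carried trimethylated lysine 27 of histone H3 (H3K27me3) away from any protein-coding promoter were examined in wild-type fetal liver erythroblasts. A peak was counted when it lay at least 1 kb from every protein-coding transcription start site (TSS) of GENCODE M1 and when the 1 kb centred on its summit reached 50% in GC content and 0.6 in the ratio of observed to expected CpG. The ratio compares the number of CG dinucleotides with the number that the C and G content of the same window would give. Of the 4490 H3K27me3 peaks in the wild-type CD71+Ter119high fraction, 2249 lay away from a protein-coding TSS and 380, or 8.46% of the list, met both sequence limits. The other 1869 peaks away from a TSS were CpG-poor, 1755 peaks were CpG-island promoters and 486 were CpG-poor promoters.

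The study compared chromatin of erythroid cells with and without Pcl2, the gene also named Mtf2. Fetal livers of C57Bl/6 embryos at E14.5, either WT or Pcl2 -/-, were sorted into a CD71+Ter119-/lo fraction of less mature cells and a CD71+Ter119high fraction of more mature erythroblasts, with 500000 cells per sample for each precipitation and each IgG control. The mutants descended from gene-targeted EUCOMM ES cells aggregated with CD1 blastocysts, and the knockout was constitutive, so that it was not limited to erythroid cells. H3K27me3 was mapped in both fractions of both genotypes and Mtf2 in both WT fractions, as 6 ChIP lists called against 4 IgG libraries. The series text names H3K4me3 once in place of H3K27me3, and the sample labels and the methods, which give H3K27me3, are followed here. Each list came from 1 ChIP alignment and 1 IgG alignment, the methods give replicates of 2 without stating whether they were pooled, and no difference between lists could be tested against a replicate error.

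A CpG island is a stretch of DNA in which CpG dinucleotides have escaped the loss that methylation causes elsewhere in the genome, and most islands lie at promoters. Polycomb repressive complex 2 (PRC2), with the enzymes Ezh1 and Ezh2, writes H3K27me3, and unmethylated CpG-rich DNA without active transcription is its usual target in mammals. Mtf2 is a PRC2 accessory protein whose winged-helix domain binds unmethylated CpG-containing DNA. Islands away from annotated promoters, sometimes called orphan islands, often hold starts of non-coding RNA, starts of alternative transcripts, or the 3′ exons of developmental genes.

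To show the sequence on which the rule rests, 300 bases around the summit are given for 6 peaks that recur in the results: the peak with the highest score, the peak with the highest score over 50 kb from a protein-coding TSS, the peak with the highest fold enrichment, the peak beside Gfi1, the peak nearest to the CpG limit, and 1 peak of a tandem repeat. Coordinates are NCBIM37 (mm9), the plus strand is written 5′ to 3′, and CG dinucleotides are in capitals.
peak at the start of Tmem121b, chr6:120443743-120444042: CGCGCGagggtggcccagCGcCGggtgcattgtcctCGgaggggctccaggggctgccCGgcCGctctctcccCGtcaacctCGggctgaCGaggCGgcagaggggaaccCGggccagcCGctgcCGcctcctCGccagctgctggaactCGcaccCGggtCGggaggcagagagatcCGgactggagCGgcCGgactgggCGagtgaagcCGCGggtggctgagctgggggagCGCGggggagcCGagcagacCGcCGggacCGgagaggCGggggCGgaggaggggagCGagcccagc
peak upstream of Prdm13, chr4:21615757-21616056: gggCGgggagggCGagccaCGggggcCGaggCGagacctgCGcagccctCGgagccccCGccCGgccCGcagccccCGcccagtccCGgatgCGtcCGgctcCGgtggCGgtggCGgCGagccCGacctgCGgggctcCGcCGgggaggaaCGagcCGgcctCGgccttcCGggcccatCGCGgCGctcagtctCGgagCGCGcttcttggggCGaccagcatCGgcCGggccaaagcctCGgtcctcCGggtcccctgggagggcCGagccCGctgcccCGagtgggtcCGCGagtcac
peak at A330074K22Rik, chr8:122752986-122753285: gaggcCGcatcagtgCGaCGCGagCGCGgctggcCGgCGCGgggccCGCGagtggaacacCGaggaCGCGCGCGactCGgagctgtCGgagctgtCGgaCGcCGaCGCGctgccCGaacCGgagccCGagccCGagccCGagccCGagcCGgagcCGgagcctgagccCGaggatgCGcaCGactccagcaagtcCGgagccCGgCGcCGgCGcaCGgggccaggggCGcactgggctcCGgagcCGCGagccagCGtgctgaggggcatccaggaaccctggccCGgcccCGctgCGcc
peak beside Gfi1, chr5:108150501-108150800: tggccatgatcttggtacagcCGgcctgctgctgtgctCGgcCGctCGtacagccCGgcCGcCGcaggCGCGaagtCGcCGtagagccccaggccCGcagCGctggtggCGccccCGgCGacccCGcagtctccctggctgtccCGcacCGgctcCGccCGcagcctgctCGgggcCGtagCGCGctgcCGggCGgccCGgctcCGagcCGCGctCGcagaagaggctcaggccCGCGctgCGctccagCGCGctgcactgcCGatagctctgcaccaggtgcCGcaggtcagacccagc
peak beside Spef1, chr2:130997143-130997442: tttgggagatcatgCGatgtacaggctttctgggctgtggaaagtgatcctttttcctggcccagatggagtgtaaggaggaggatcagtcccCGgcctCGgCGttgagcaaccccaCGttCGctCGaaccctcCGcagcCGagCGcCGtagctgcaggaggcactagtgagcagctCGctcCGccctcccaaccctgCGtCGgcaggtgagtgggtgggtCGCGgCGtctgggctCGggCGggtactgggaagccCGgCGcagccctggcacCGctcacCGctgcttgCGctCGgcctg
peak in the 5S rRNA array, chr8:126075058-126075357: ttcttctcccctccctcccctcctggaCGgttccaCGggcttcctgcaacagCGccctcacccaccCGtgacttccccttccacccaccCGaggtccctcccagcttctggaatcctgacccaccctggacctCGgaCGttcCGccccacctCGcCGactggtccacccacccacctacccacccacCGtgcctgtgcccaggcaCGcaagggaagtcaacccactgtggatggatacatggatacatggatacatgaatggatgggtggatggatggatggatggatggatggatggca

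The 300 bases at the Tmem121b start held 34 CpG, those upstream of Prdm13 held 42 and those at A330074K22Rik held 48. The window beside Spef1, whose 1 kb ratio of 0.601 was the lowest among the 380 peaks, still held 26 CpG at the summit. The window in the 5S rRNA array held only 12 and had a ratio of 0.441, although its surrounding 1 kb passed the limit at 0.668. In that peak the CpG lay mostly away from the summit.

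**Figure D1:**
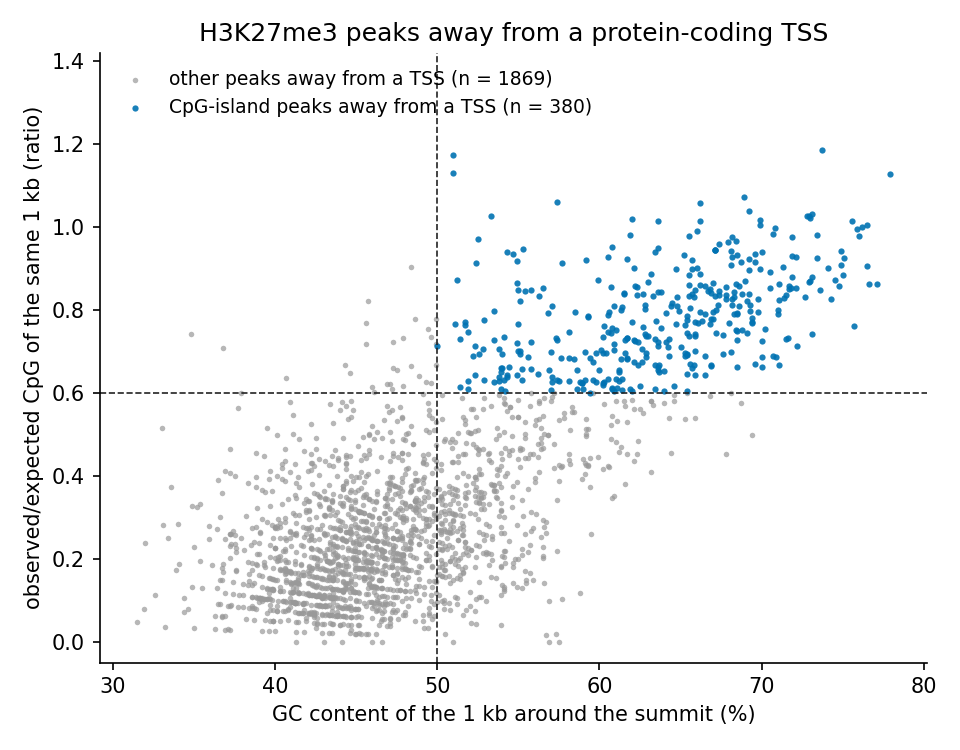
GC content (x axis, %) against observed/expected CpG (y axis, ratio) of the 1 kb around the summit for the 2249 H3K27me3 peaks away from a protein-coding TSS, each point being 1 peak and the dashed lines the limits of 50% and 0.6. The 380 peaks that passed both limits are blue, and of the 1869 grey peaks 455 passed only the GC limit, 29 only the CpG limit and 1385 neither.

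The limits cut through a continuous distribution. Among the 380 peaks, 54 had a ratio under 0.65 and 45 a GC content under 55%, while 46 peaks with enough GC fell between 0.55 and 0.6. Just inside the CpG limit were the peaks beside Spef1 at 0.601 and Mapk8ip1 at 0.604. Just outside were those beside Vstm2l at 0.5996, Skor2 at 0.5995 and Zswim4 at 0.5993. At the GC limit the nearest peaks inside were beside Gm10013 at 50%, Gsdmc at 51% and Ankrd60 at 51%, and those outside, beside Chst11, Zfp322a and Tulp4, were all at 49.9%. At the distance limit the edge of the peak inside Hoxb2 was 1003 bp from the nearest protein-coding TSS, and the edge of the peak beside Nkx6-2, which was left out, was 985 bp away.

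CpG density was highest at the summit and fell away on both sides. In the 380 peaks the mean was 11.3 CpG per 100 bp in the 100 bp before the summit and 11.2 in the 100 bp after it, against 12.8 on both sides in CpG-island promoters and 2.10 and 2.12 in CpG-poor distal peaks. It had fallen to 1.96 by the outermost 100 bp of the 2 kb downstream. Since the rule selected on the central 1 kb, the height of the curve is a description of the choice. In the 100 bp just beyond that window the mean was 4.84 CpG downstream and 4.597 upstream in the 380 peaks, and 5.30 and 5.601 in CpG-island promoters.

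**Figure D2:**
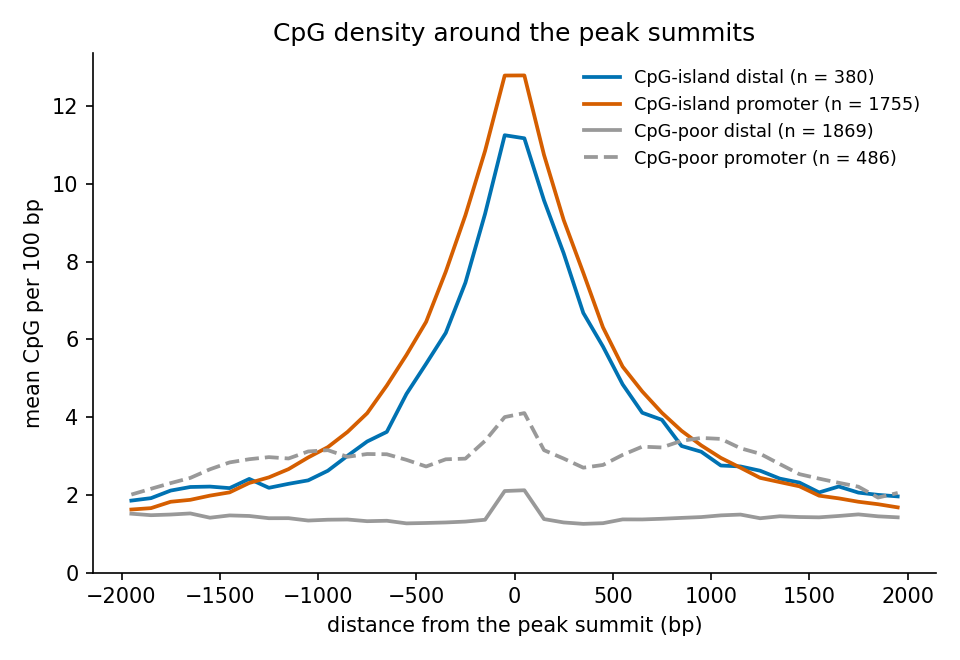
Mean number of CpG per 100 bp (y axis) by distance from the peak summit (x axis, bp) in the 4 classes of WT CD71+Ter119high H3K27me3 peaks, each line being the mean over the number of peaks in the legend. The 380 CpG-island distal peaks reach 11.3 CpG per 100 bp at the summit and CpG-island promoters 12.8.

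Short motifs were counted as a further description of the sequence. The rule selected on GC and CpG around the same summits, so it bears directly on the shares of GC-rich and AT-rich motifs. GGGCGG, the core of the GC box, was found on either strand within 300 bp of summit sequence in 247 of the 380 peaks (65.0%), compared with 77.8% of CpG-island promoters, 6.42% of CpG-poor distal peaks and 41.6% of all 4490 peaks. GCGCGC was found in 43.7% of the 380, 54.0% of CpG-island promoters and 32.3% of all peaks. AGATAA, a form of the site read by GATA factors, was found in 11 of the 380 (2.89%). Its share was 0.969% in CpG-island promoters, 10.5% in CpG-poor distal peaks and 6.06% in all. The E-box CACGTG was present in 6.58% of the 380 and 5.95% of all peaks, and CAGCTG in 18.7% and 15.1%. The TATA box sequence TATAAA was present in 2.63% of the 380, 0.855% of CpG-island promoters and 7.17% of all peaks.

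Peak strength is given here as the caller reported it: tags are the reads that the caller counted in the peak, fold enrichment is the ratio of ChIP tags to the local IgG background, and the score is 10 times the negative base-10 logarithm of the p-value. The 380 peaks held 21 to 373 tags with a median of 48, and the fold enrichment ran from 4.49 to 23.6 with a median of 8.56. The median score was 88.6 and the median length 1272 bp. These medians lay between those of CpG-poor distal peaks, with 26 tags and a score of 57.3, and those of CpG-island promoters, with 59 tags and a score of 109. The caller's false discovery rate (FDR) was at most 5% in 160 of the 380 (42.1%), compared with 54.6% of CpG-island promoters and 4.98% of CpG-poor distal peaks.

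Several of the peaks with the highest scores lay at starts that GENCODE M1 did not list as protein-coding. The highest score, 783 with 236 tags and a fold enrichment of 14.8, belonged to chr6:120442085-120444699, which was 30.7 kb from the nearest protein-coding TSS, that of the cytokine receptor gene Il17ra. Its summit was 71 bp from a RefSeq start of Tmem121b, a gene that the older annotation typed as a pseudogene. The peak with the third highest score, 603 with 168 tags, was assigned to Tnfrsf13c, the receptor for the B-cell factor BAFF, at 11.5 kb, while its summit was 4 bp from a RefSeq start of Shisa8, whose family encodes auxiliary proteins of glutamate receptors. The peak beside Dgkh, a diacylglycerol kinase, was 7.56 kb upstream of the nearest M1 TSS and 76 bp from a RefSeq start of the same gene. In the newer annotation these 3 peaks thus lay at a gene start.

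At others among the 10 highest scores no start of either annotation was found within 1 kb. The second highest score, 742 with 166 tags and a fold enrichment of 21.6, was 10.0 kb upstream of Zfhx3, a large homeodomain and zinc-finger transcription factor. A peak 2.80 kb upstream of Prdm13, a zinc-finger factor that directs the choice between inhibitory and excitatory neurons, held 112 tags and had the highest fold enrichment of the 380, 23.6. A further peak of 131 tags and a fold of 11.0 lay inside a coding exon of Prdm13, 6.66 kb downstream of its TSS. The peak in a coding exon of Rtn4rl2, a Nogo receptor homologue, held 170 tags at 14.02 kb, and the peak assigned to Gng8 lay in a coding exon of the neighbouring Dact3, an antagonist of Wnt signalling, with 135 tags and a fold of 16.4. The peak assigned to Otub1 lay in an intron of Macrod1 with 185 tags, and the one assigned to Gm10567 was intergenic with 154 tags.

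By place in protein-coding genes, 91 of the 380 peaks had their summit in a coding exon (23.9%, with a 95% Wilson interval of 19.9 to 28.5), against 14.7% of all 4490 peaks. A further 89 lay in introns, 12 in 3′ UTRs, 2 in 5′ UTRs and 186 (48.9%) between genes. The intergenic share in all peaks was 37.7%, and 14.3% of all peaks but 0.526% of the 380 had the summit in a 5′ UTR, which the distance rule largely fixed. The rule, by distance and by GC and CpG, also bears on the coding-exon and intergenic shares, and its part in them was not tested. Of the 91 in coding exons, 61 lay in the last exon of at least 1 transcript and 44 were over 5 kb from any protein-coding TSS. Neither count was made for the coding-exon peaks of the whole list, and the distance rule bears on both. All intervals in the text cover counting error within these lists only. One gene model, Gm20388, a read-through transcript that spans many genes on chromosome 8, supplied 9 of the introns, and without it 195 summits (51.3%) were intergenic. Of the 185 summits then left in a gene, 35 lay in another gene than that of the nearest TSS, 24 of them in a coding exon.

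Coding-exon peaks included genes of body and organ patterning. Uncx, a homeobox gene of the somites and kidney, carried 85 tags with a fold of 11.2 at 3.03 kb from its TSS. Irx5, an Iroquois homeobox gene, carried 96 tags with a fold of 10.3 at 2.56 kb. Tbx1, the T-box gene of the pharyngeal arches, and Tbr1, a T-box gene of cortical neurons, carried 96 and 85 tags at 4.71 and 5.58 kb. Among secreted signals, Dhh, a hedgehog ligand, carried 120 tags in a coding exon at 4.12 kb and Gdf7, a BMP-family ligand, carried 74 at 3.25 kb. Shh carried 36 tags in an intron at 2.62 kb. All of these lay downstream of the TSS, within the gene body.

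Distance from the nearest protein-coding TSS ranged from 1.17 to 811 kb with a median of 9.51 kb. Within 5 kb lay 127 peaks (33.4%, 28.9 to 38.3), of which 86 were downstream of the TSS and 41 upstream, and in 9 of the 127 the CpG-rich sequence ran on without a break to the TSS. Over 50 kb lay 71 peaks (18.7%) and over 100 kb lay 21. The 71 peaks over 50 kb had a median of 46 tags and a median fold of 8.56, against 48 and 8.56 over all 380.

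**Figure D3:**
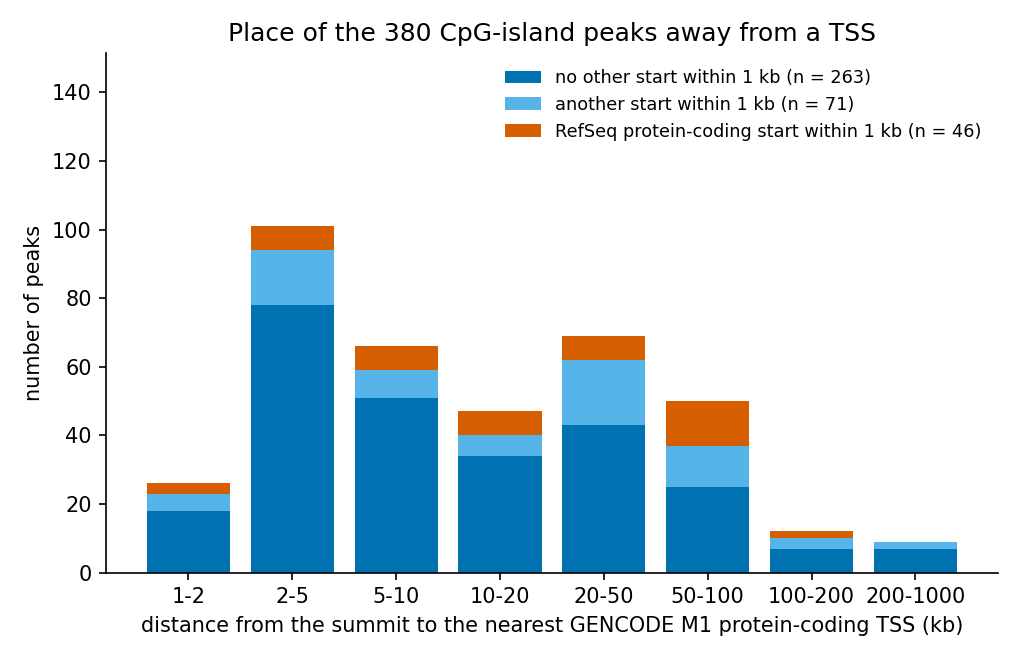
Number of peaks (y axis) by distance from the summit to the nearest GENCODE M1 protein-coding TSS (x axis, kb, in unequal classes) for the 380 CpG-island peaks away from a TSS. Colours mark the 46 peaks with a RefSeq protein-coding start found within 1 kb, 71 with another annotated start and 263 with neither found. The fullest class, 2 to 5 kb, holds 101 peaks.

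Starts of other gene types lay at more of these islands than of all peaks, though the interval overlapped that of CpG-island promoters. RefSeq starts lay at fewer of the islands than of all peaks, which the distance rule largely fixed by leaving out peaks at protein-coding TSS. A TSS of another GENCODE M1 gene type lay within 1 kb of 61 of the 380 peaks (16.1%, 12.7 to 20.1), against 8.20% of all 4490 peaks and 2.51% of CpG-poor distal peaks. Among CpG-island promoters such a TSS lay at 211 of 1755, with an interval of 10.6 to 13.6%. Without the 5S rRNA array the share of the islands was 14.7% (11.5 to 18.7). By type, 17 of the 380 peaks lay at a lincRNA, 16 at a processed transcript, 14 at a pseudogene, 13 at a miRNA and 6 at a 5S rRNA gene. When the 60 bases around each RefSeq start were matched by sequence, 80 of the 380 (21.1%) had a RefSeq start within 1 kb, 46 of them protein-coding and 34 non-coding only. The same match found a start at 38.4% of all peaks and at 3.64% of CpG-poor distal peaks. A protein-coding RefSeq start lay at 12.1% of the 380 and 35.0% of all peaks. Non-coding RefSeq starts only were found at 8.95% and 3.39%. In all, a start of one kind or the other was found at 117 of the 380 (30.8%) and neither at 263 (69.2%, 64.4 to 73.6). Over all peaks these shares were 41.5% and 58.5%. The sequence match found a protein-coding RefSeq start at only 70.1% of CpG-island promoters, all of which lie within 1 kb of a GENCODE M1 protein-coding TSS. An island where neither was found may thus still hold a start. The distance rule also bears on the contrast with all peaks, since all peaks include those at protein-coding starts.

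Several of the remote peaks lay at or near such starts. The peak 51.8 kb from Fam92b, with 126 tags and a fold of 12.4, was 1006 bp from the RefSeq start of the lncRNA A330074K22Rik. For the peak assigned to Evi5 at 77.9 kb, with 92 tags and a fold of 17.5, no such start was found within 1 kb. It was 2.33 kb from the start of Gfi1, a transcriptional repressor of blood stem cells, lymphocytes and myeloid cells that M1 typed as a processed transcript. The peak assigned to Dcp1b at 67.4 kb lay in an intron of Cacna1c, an L-type calcium channel subunit, with 162 tags, and its summit was 678 bp from a RefSeq start of that gene. The peak with the most tags, 373 over 7780 bp, was assigned to Nrf1 at 57.7 kb and lay 266 bp from a RefSeq lncRNA start, with the start of Mir183, a miRNA of sensory cells, 4.12 kb away. A peak 207 kb from Mef2c with a fold of 19.1 lay at the lincRNA Gm17547. The peak assigned to Ppara at 63.6 kb had 95 tags, and no start of either annotation was found within 1 kb.

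Mature miRNAs from RefSeq were found by sequence in or within 1 kb of 9 peaks, and 7 mature sequences are printed because they come from pairs of miRNAs that share a seed or from known regulators of neurons and of cell division. Bases 2 to 8, the seed that pairs with targets, are in capitals.
miR-132-3p: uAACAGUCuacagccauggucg
miR-212-3p: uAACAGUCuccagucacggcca
miR-34b-3p: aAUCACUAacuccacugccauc
miR-34c-3p: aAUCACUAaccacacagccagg
miR-193a-3p: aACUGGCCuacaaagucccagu
miR-9-5p: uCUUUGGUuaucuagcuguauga
miR-129-5p: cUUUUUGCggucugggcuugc

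miR-132-3p and miR-212-3p shared the seed AACAGUC and lay together upstream of Hic1, a transcriptional repressor, in a peak of 57 tags and a fold of 13.5, with a further peak of 28 tags and a fold of 8.98 beside it. Their summit distances were 612 and 332 bp in the stronger peak. miR-34b-3p and miR-34c-3p, products of a p53-responsive cluster, shared the seed AUCACUA. miR-34b-3p lay in a peak of 56 tags and a fold of 9.54, and miR-34c-3p lay outside that peak, 805 bp from its summit. The Mir193a peak had the highest score of the 9, with 130 tags and a fold of 11.1 at 50.5 kb from Rab11fip4. The Mir9-1 peak held 80 tags, with miR-9-5p, a neuronal miRNA, 398 bp from the summit. The Mir129-2 peak had the lowest score of the 9, with 28 tags and a fold of 7.86.

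A listed developmental gene was nearest to a larger share of the islands than of all peaks, though not among the islands with the highest scores. The nearest protein-coding TSS belonged to 1 of 11 developmental gene lists in 92 of the 380 peaks (24.2%, 20.2 to 28.8), against 17.4% of all 4490 peaks, 20.2% of CpG-island promoters and 12.8% of CpG-poor distal peaks. The 7 lists of transcription factors accounted for 81 peaks at 67 genes (21.3%, 17.5 to 25.7), against 12.2% of all peaks and 13.4% of CpG-island promoters. The 4 lists of signalling and guidance genes accounted for 11 (2.89%, 1.62 to 5.11), against 5.14% of all. This division of the lists was made after their values were seen, so it gives no independent evidence of a difference between the 7 and the 4 lists. Among the 161 peaks with a score of at least 100, the share in all 11 lists was 17.4%. That equals the 17.4% of all 4490 peaks at any score.

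Homeobox genes formed the largest group. LIM, Pax and other homeobox genes were nearest to 26 peaks (6.84%, 4.71 to 9.84; 4.37% of all peaks), including Zfhx3, Uncx with 85 tags, and Onecut3, a factor of endoderm and neurons, with 100 tags and a fold of 10.1 in an intron. Pax2, the paired-box gene of kidney and eye, had 3 peaks, with 43 tags in its 3′ UTR, 73 tags 29.9 kb upstream and 40 tags 71.6 kb upstream. The homeobox list that holds the Dlx, Irx and Nkx genes was nearest to 8 peaks (2.11%; 1.14% of all), among them Nkx2-3 with 48 tags and Dlx2 with 58. Hox genes were nearest to 4 (1.05%; 0.802% of all), of which the peak in a coding exon of Hoxb2 had the highest score, with 38 tags and a fold of 11.2; those beside Hoxc12 and Hoxa11 had 22 and 30 tags.

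Zinc-finger factors were nearest to 19 peaks (5.0%, 3.22 to 7.68; 2.81% of all), led by the pair at Prdm13 and by Prdm8, with 86 tags and a fold of 9.41 in a coding exon. bHLH factors were nearest to 11 (2.89%, 1.62 to 5.11; 1.27% of all), including Npas3, a neuronal factor, with 104 tags and a fold of 16.8, Hand1, a heart factor, with 65 tags 4.34 kb downstream, and Id3, an inhibitor of bHLH factors, with 56. Forkhead genes were nearest to 8 (2.11%; 1.05% of all), with Foxo6 at 56 tags, Foxd2 at 41 and Foxc2 at 37. Sox and T-box genes were nearest to 5 (1.32%; 0.824% of all), led by Tbx2, a repressor, with 138 tags and a fold of 8.56 in an intron.

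Signalling lists held few of the peaks. Wnt pathway genes were nearest to 3 (0.789%; 1.49% of all): Celsr3 with 24 tags in a coding exon, Nkd1 with 44 tags 67.1 kb upstream and Wnt7b with 29 tags 44.3 kb upstream. Gdf7 was the only gene of the BMP and TGF-beta list (0.263%; 0.980% of all). Dhh, Shh and Notch3 made up the Fgf, hedgehog and Notch list (0.789%; 0.935% of all), and the axon guidance and cadherin list had 4 peaks (1.05%; 1.74% of all), of which Efna3 was highest with 48 tags. Ion channel genes were nearest to 4 (1.05%; 2.09% of all) and neurotransmitter receptor genes to 3 (0.789%; 0.869% of all), the latter Drd4, Adra1d and Adra2c with 51, 57 and 33 tags. A further island of 161 tags lay in a coding exon of Grin2d, an NMDA receptor subunit, while its nearest TSS was that of Grwd1.

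Blood genes were nearest to few of the islands, at shares whose intervals held those of all peaks. The list of myeloid, lymphoid and stem-cell factors had 5 peaks (1.32%, 0.563 to 3.04; 0.780% of all), at Mecom, a stem-cell factor, with 38 and 23 tags in introns, at Ebf1, the B-cell factor, with 26, and at Etv2 and Meis1; Ebf1 and Meis1 also stand in the bHLH and homeobox lists. Gfi1 was not counted among the blood genes because of its gene type. The erythroid programme had 1 peak (0.263%; 0.267% of all), and it lay 315 kb from Epb4.1l3 with 22 tags. By the gene that held the summit 1 further island belonged to that list, with 104 tags and a fold of 8.99 in a coding exon of Zfpm1, although the nearest TSS, 24.6 kb away, was that of Trhr2. Pcgf5, a Polycomb subunit, was the only gene of the Polycomb and CDK inhibitor list (0.263%; 0.468% of all), with 112 tags 30.6 kb upstream and 148 bp from a RefSeq start of the same gene.

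**Figure D4:**
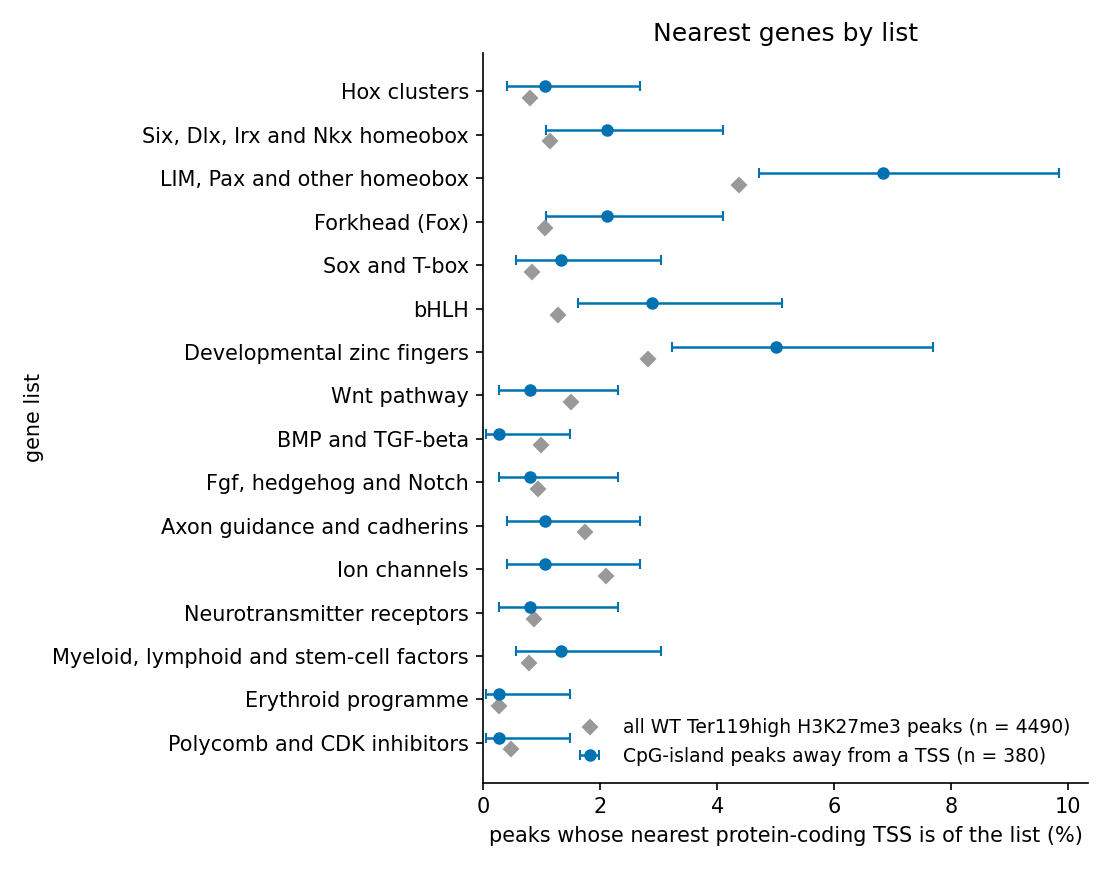
Share of peaks (x axis, %) whose nearest protein-coding TSS belongs to each of 16 gene lists (y axis), for the 380 CpG-island peaks away from a TSS (blue, bars are 95% Wilson intervals) and for all 4490 peaks (grey diamonds). The LIM, Pax and other homeobox list is highest at 6.84% against 4.37%.

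Part of the islands lay beside genes that were also marked at the promoter. For 130 of the 380 peaks (34.2%, 29.6 to 39.1) the nearest gene also had an H3K27me3 peak at a TSS, against 539 of the 1869 CpG-poor distal peaks (28.8%, 26.8 to 30.9), intervals that overlapped. In 136 of the 380 the next peak of the same list was within 5 kb, and it was a CpG-island promoter in 35, another of the 380 in 36 and CpG-poor in the rest. The 380 peaks fell into 352 loci at a joining distance of 5 kb, 331 of them with 1 peak and 21 with 2 to 6. Scarf2, a scavenger receptor family gene, had 4 peaks over 5.50 kb of its gene body with 79, 27, 25 and 21 tags. Ostm1, which is needed for bone resorption, had 4 in introns with 46 to 61 tags. They lay between 7.96 and 46.9 kb from whichever annotated TSS of the gene was nearest, on either side of it.

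The locus with most peaks was the 5S rRNA gene array on chromosome 8. 5S rRNA, made by RNA polymerase III, is part of the large ribosomal subunit, and its genes lie in tandem. GENCODE M1 lists 51 of them between 126062686 and 126147645, 84.96 kb, and 32 have the same sequence.

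In the array 6 of the 380 peaks lay side by side over 18.2 kb with 80 to 115 tags and folds of 5.13 to 8.07, and they were assigned to Gas8, 24.8 to 42.1 kb away. Of the 20-base words in their 1 kb windows, 92.2 to 100% recurred within the surrounding 20 kb, while no peak outside the array exceeded 43.2%. A further 8 H3K27me3 peaks of the array were CpG-poor by the rule, and the 14 together held bases of 28 of the 51 genes. Reads of near-identical copies cannot be assigned to 1 copy, and how the aligner placed them is not given in the sources used here, so tag numbers within the array are uncertain.

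Between the WT fractions, most of the islands, like most peaks of the whole list, had a called peak only in the more mature fraction. A peak of the less mature CD71+Ter119-/lo fraction shared at least 1 base with 35 of the 380 (9.21%, 6.70 to 12.5), against 6.30% of all 4490 peaks. It was 8.03% in CpG-island promoters, 8.85% in CpG-poor promoters and 3.42% in CpG-poor distal peaks. Without the 5S array the share of the islands was 29 of 374 (7.75%). The 38 overlapping peaks were 0.761% of the 4992 in the less mature list, which had 18945784 unique tags against 30054186 in the more mature one. The 35 had more tags than the others, with a median of 92 against 46, and were longer, with a median of 1971 against 1251 bp, while their median fold was 8.07 against 8.56. Among islands with a score of at least 100, peaks of the 5S array included, the share was 13.7%. The share of all peaks at that score was not computed. The part of peak length in these shares was not tested. In a mixed fraction a mark in fewer cells and less of the mark per cell cannot be told apart.

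The overlapping peaks of the less mature fraction were small. They held 16 to 76 tags with a median of 19 and folds of 6.02 to 14.6, and the shared stretch had a median of 635 bp. Per kb and per 1000000 unique tags the median was 1.40 in the more mature and 1.35 in the less mature peak of each pair. Each value covers the called peak of its own list, so a pair does not measure the same bases. The calling threshold also bears on both values. At Tmem121b the pair held 236 and 24 tags, or 3.003 and 1.28 on this scale, with summits 1486 bp apart. At Gfi1 the single island of the more mature list, with 92 tags, met 2 peaks of 17 and 47 tags. Rtn4rl2, Onecut3, Dhh and Irx5 were among the others, with 21, 30, 19 and 17 tags in the less mature list, where all FDR values of overlapping peaks were between 5.36 and 14.9%. Thus no overlapping peak of that list reached an FDR of 5%, and the FDR values of its other peaks are not given here.

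**Figure D5:**
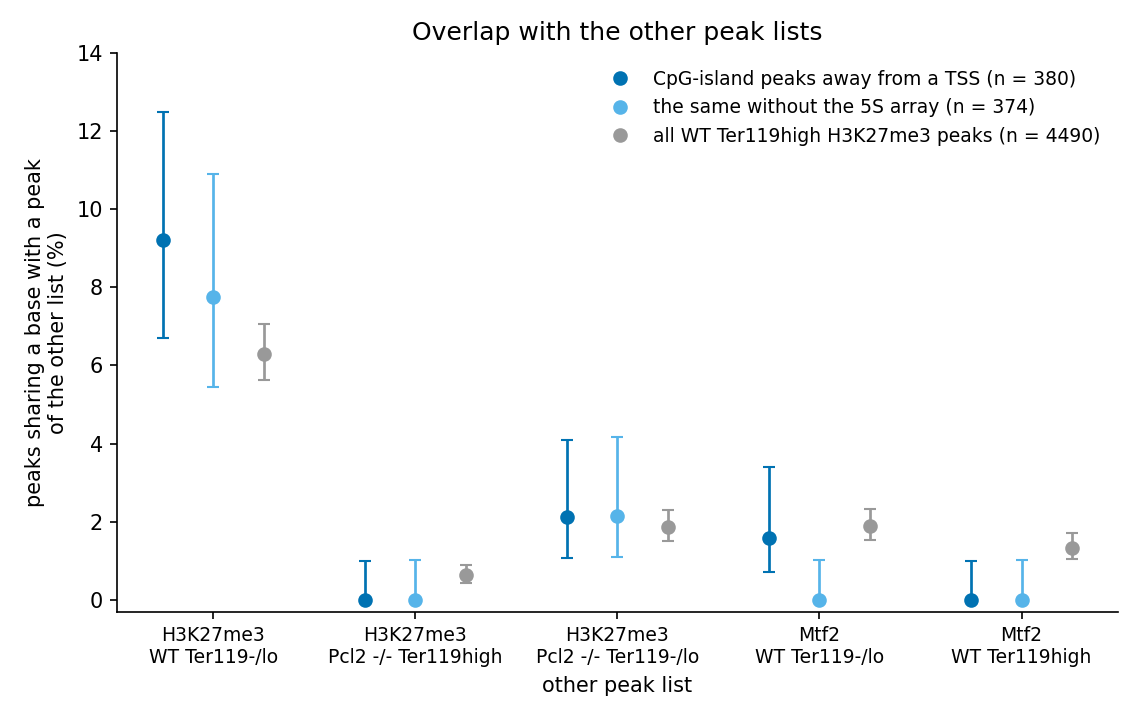
Share of peaks (y axis, %) that share at least 1 base with a peak of each of the 5 other lists (x axis), for the 380 CpG-island peaks away from a TSS (dark blue), the 374 outside the 5S rRNA array (light blue) and all 4490 peaks (grey), with 95% Wilson intervals. The highest share, 9.21%, is with the WT CD71+Ter119-/lo list, and the share with Mtf2 in that fraction falls from 1.58% to 0 without the array.

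Called H3K27me3 peaks of Pcl2 -/- erythroblasts met few islands, as they met few peaks of the whole WT list. None of the 380 overlapped the 5791 peaks of the Pcl2 -/- CD71+Ter119high list, and a count of 0 allows a share of up to 0.789%; the share of all 4490 peaks was 0.624%, and 0 of the 1755 CpG-island promoters overlapped. The nearest peak of that list was 10.7 kb away and the median gap was 276 kb, close to the 285 kb over all peaks. That library held 67169672 unique tags, more than the 30054186 of the WT library, and the comparison rests on 1 list of each genotype. Peak lists give no level where no peak was called, so that a lower level and an uncalled peak cannot be told apart here.

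In the Pcl2 -/- CD71+Ter119-/lo list 8 of the 380 overlapped a peak (2.11%, 1.07 to 4.10; 1.87% of all peaks). Among them were the islands at Tmem121b, Dact3, Zfpm1, Tbr1, Pabpc1l2a, Sox6 and Duoxa2. The mutant peaks held 24 to 63 tags with folds of 5.36 to 9.12, and the largest was in a coding exon of Zfpm1, which encodes the GATA1 partner FOG-1, with 63 tags. Per kb and per 1000000 unique tags this peak had 1.13, and the island in WT CD71+Ter119high cells, another stage, had 1.71. In an intron of Sox6, an Sry-related factor that silences embryonic globin, the mutant peak held 25 tags, or 1.08 on this scale. At the same island the WT CD71+Ter119-/lo peak held 21 tags, or 1.52, and the WT CD71+Ter119high peak 142, or 1.41. These densities again cover each list's own called peak. The WT CD71+Ter119-/lo and mutant summits were 2203 and 1125 bp from the summit of the island. At Tmem121b the mutant peak held 43 tags and at Dact3 30. The caller gave all 8 mutant peaks an FDR of 100%, the value at which exchanging ChIP and IgG yields as many peaks. For the other peaks of the mutant list the FDR is not given here.

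Mtf2 peaks met the islands only in the 5S array. In the less mature WT fraction, 6 of the 380 (1.58%, 0.726 to 3.40; 1.89% of all peaks) overlapped 1 of 28918 Mtf2 peaks, and all 6 were those of the array. Outside it 0 of 374 overlapped, for which up to 0.802% is allowed by counting error, and the nearest Mtf2 peak was 1.07 kb away with a median gap of 69.4 kb, against 65.1 kb over all 4490 peaks. In the more mature fraction 0 of 380 overlapped the 5309 Mtf2 peaks (1.34% of all peaks), and the nearest was 4.05 kb away. CpG-island promoters also met few Mtf2 peaks, 4 of 1755 (0.228%) in the less mature and 1 of 1755 (0.0570%) in the more mature fraction. Of the 60 overlapped peaks in the more mature comparison, 58 were CpG-poor distal.

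Within the array Mtf2 peaks were called in the less mature fraction only, and tag numbers in this repeated sequence are uncertain. The Mtf2 list of the less mature fraction had 39 peaks there with 23 to 328 tags, folds of 6.07 to 15.1 and a highest score of 876, and all 14 WT CD71+Ter119high H3K27me3 peaks of the array overlapped 1 of them, of 85 such overlaps in the whole list. The less mature H3K27me3 list had 24 peaks in the array and met all 6 islands. The Pcl2 -/- CD71+Ter119high list had 2 peaks in the array with 54 and 83 tags, neither at the 6 islands, and the Pcl2 -/- CD71+Ter119-/lo and the more mature Mtf2 lists had 0. The parts of repeated sequence and of duplicate reads in these overlaps were not tested. The less mature Mtf2 library held 29009650 unique tags among 83941685 in all.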

How the data were processed

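Erythroid cells of mouse fetal liver were profiled by ChIP-seq, with 1 library per condition. As per the file headers and labels, the authors aligned reads to mm9 with Bowtie2 2.2.3 and called peaks with MACS 1.3.7 on each ChIP alignment against the IgG of the same fraction and genotype, at a p-value cutoff of 1e-05. The deposited lists give tag counts per peak that are not scaled for depth, the score of 10 times the negative log10 p-value, the fold enrichment as a ratio over the local IgG background, and an FDR in percent from exchanging ChIP and IgG. Unique tags per ChIP library ran from 15669899 to 67169672. Unique tags are the caller's count after removal of duplicates. The part of depth in the overlaps was not tested.

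From these lists, GC and CpG content were computed on NCBIM37 (mm9), in which no peak ran past a chromosome end, and places were taken from GENCODE M1 (69976 protein-coding TSS positions of 22238 gene symbols). RefSeq starts (32851 promoter sequences, GRCm38.p6) and miRNAs were matched by sequence alone, with 60 bases around each start and the whole mature miRNA, and their coordinates were not used. An overlap was a shared stretch of 1 base or more. Shares have 95% Wilson intervals, and a count of 0 allows a share of up to 3 counts of the total; both cover counting error only. No test was run, since no condition had a replicate list. Gene lists were matched to the symbol of the nearest protein-coding TSS. Named peaks are the 10 highest scores, the 5 highest folds, the 5 highest scores over 50 kb from a TSS, the 3 highest per gene list, genes with 4 or more peaks, peaks met by another list (all if 10 or fewer, otherwise the 5 with the highest score) and the 3 on either side of each limit; other peaks named were chosen after their values were seen. Some items are not reported here. The peaks and lists were chosen with earlier results of these data known. Alternatives changed 1 choice at a time, except that the stricter sequence limits raised GC and CpG together. Sequences were read with pysam 0.24.0, intervals came from scipy 1.17.1, figures from matplotlib 3.10.9, and tables from pandas 2.3.3 with numpy 2.4.6 under Python 3.11.15. The interval and rule code was tested on simulated data.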

Additional observations from a re-analysis of the deposited data

How the results depend on the processing

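Of 127 recomputed values, 111 stayed within the counting interval of the reported share or within 1.5 times the reported count, and 16 did not. WT peaks limited to a score of at least 100 or an FDR of at most 5% left 161 and 160 islands, of which 13.7% and 13.8% overlapped the WT CD71+Ter119-/lo list and 17.4% and 17.5% were nearest to a listed developmental gene. When at least 50% of the island had to be covered, the overlap with the WT and Pcl2 -/- CD71+Ter119-/lo H3K27me3 lists was 2.37% and 0.526%. With other peaks of a score of at least 100 it was 1.32% and 0.263%, and with a peak within 1 kb the WT share was 13.2%. The share overlapped by Mtf2 in the less mature fraction was 0.678% with limits of 55% GC and 0.65 CpG, 0.711% with a 500 bp sequence window, and 0 without the 5S array, an alternative chosen after seeing the data, as were leaving out RefSeq protein-coding starts and Gm20388. The share within 5 kb of a TSS was 44.0% with a TSS window of 500 bp and 21.9% with 2 kb, both by construction. For the other changes the cause was not tested. The shares overlapped by the Pcl2 -/- and the Mtf2 CD71+Ter119high lists were 0 in all 14 alternatives of each.

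No paired analysis was possible because each condition had 1 library. Single lists, unequal depth and a threshold on every peak limit the overlaps: an island without a called peak is not an island without the mark.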
